A study of Mus musculus with 12 samples.

Results

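The 10 genes followed here belong to the endoplasmic reticulum (ER) stress response and were measured in macrophages of the mouse mammary ducts: Hspa5, Hsp90b1, Calr, Sdf2l1, Dnajb9, Herpud1, Xbp1, Atf4, Ddit3 and Trib3. They were the 10 of 27179 rows of the gene count table whose Entrez identifier maps to one of these symbols. RNA was sequenced from ductal macrophages of female C57BL/6 mice at 4 stages, with 3 libraries labelled as biological replicates at each: virgin, day 16.5 of pregnancy, lactating (day not given in the labels), and 1 month after weaning. Each library was made from 2000 freshly sorted cells with the SMART-Seq v4 kit, a full-length cDNA method for small samples, and all 12 were sequenced in 1 run. The labels state no transgene, deletion or treatment, and neither the sorting gate nor the number of animals behind a library is given in the sources used here. Setting the stages against each other asks whether these transcripts change as the gland prepares for, carries out and leaves milk production. Tests rest on the spread between the libraries labelled as replicates.

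The ER folds proteins that are secreted or placed in membranes. When unfolded proteins accumulate there, the sensors IRE1, PERK and ATF6 start the unfolded protein response. ATF6 and the spliced form of XBP1 raise chaperones and the machinery that returns misfolded proteins for degradation, while PERK slows translation and favours synthesis of ATF4, which in turn raises CHOP (Ddit3) and TRIB3. In macrophages this response is best known from secretion of cytokines, uptake of lipid and infection.

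Of the 10 genes, Hspa5, Calr, Hsp90b1 and Herpud1 carried a known ER stress element in the RefSeq promoter window of GRCm38.p6 (250 bases before to 50 after the transcription start, 300 bases in all), and these stretches are shown because they are the members' matches to elements known from the promoters of ER stress genes. Each is written 5′ to 3′ on the strand of its gene with 20 flanking bases on either side, and the capitals mark the motif. Hspa5, Calr and Hsp90b1 show the ER stress element, CCAAT and CCACG separated by 9 bases, or CGTGG and ATTGG with the same spacing where it lies on the opposite strand. Herpud1 shows ERSE-II, ATTGG and CCACG separated by 1 base.
Hspa5, chr2:34772005-34772063, plus strand: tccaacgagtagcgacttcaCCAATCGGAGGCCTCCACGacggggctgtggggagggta
Calr, chr8:84847055-84847113, minus strand: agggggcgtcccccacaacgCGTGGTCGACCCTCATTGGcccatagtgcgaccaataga
Hsp90b1 distal, chr10:86705618-86705676, minus strand: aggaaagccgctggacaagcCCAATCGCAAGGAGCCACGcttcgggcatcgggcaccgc
Hsp90b1 proximal, chr10:86705513-86705571, minus strand: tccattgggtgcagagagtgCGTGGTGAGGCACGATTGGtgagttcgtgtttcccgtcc
Herpud1, chr8:94386357-94386407, plus strand: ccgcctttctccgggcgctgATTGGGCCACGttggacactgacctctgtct

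The ER stress element was present in 39 of 32851 promoter windows (0.119%), and 3 of the 10 members, Hspa5, Calr and Hsp90b1, were among them. Hsp90b1 held it in both orientations, 194 to 212 bases and 89 to 107 bases upstream of the start, Hspa5 47 to 65 bases and Calr, in the opposite orientation, 144 to 162 bases upstream. ERSE-II, searched on both strands, occurred in 12 windows (0.0365%) and in Herpud1 alone among the members, 42 to 52 bases upstream. The CARE letters TGATGNAAT, bound by ATF4 dimers, were in 317 windows (0.965%), and the UPRE letters TGACGTGG, bound by XBP1, in 222 (0.676%), both strands counted. Neither was in a member's window, which says only that these letters are not there. The same limit holds for members without a match to the ER stress element or ERSE-II, as only exact letters within the window were searched. The elements were searched because they are known from promoters of ER stress genes, so the members that match are not a test against the share of windows. The matches are a description of sequence and show no binding.

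The libraries held between 6926273 and 21204704 counts. Expression is reported in CPM, in which each library is brought to the same effective size by the trimmed mean of M values, as mean ± SD over n = 3 libraries, or as RPKM, which divides CPM by gene length in kilobases, where genes are compared with each other. All 16 macrophage markers examined were detected at every stage. Mertk was low in lactating libraries, at a mean of 2.87 CPM (0.0878 to 7.80). Its means were 52.1, 39.3 and 46.6 CPM in virgin, pregnant and post-weaning libraries. Lactating replicate 3 stood apart: its macrophage markers summed to 55948 CPM against 214281 and 200641 in Lactating replicates 1 and 2, and its 16 milk protein and secretory epithelium genes to 78821 CPM against 3774 and 3534. Across virgin, pregnant and post-weaning libraries the macrophage sum ran from 107675 to 161995 CPM. Cd74 and H2-Ab1 averaged 90469 and 33733 CPM of a mean macrophage sum of 156957 CPM in lactation. The sum thus says little of the other macrophage markers. Over the lactating libraries Csf1r ran from 489 to 1669 CPM, and Fcgr1 from 164 to 189 CPM. In bulk RNA a smaller share of macrophages and less RNA of a gene per macrophage cannot be told apart, so the tests between stages that include lactation are also given without Lactating replicate 3.

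Per length, the 10 genes spanned from among the most abundant transcripts of the cells to one near zero. Hspa5 (Entrez 14828, chromosome 2, 34772090 to 34776529), which encodes BiP, the main HSP70 chaperone of the ER and the protein that holds the sensors inactive, averaged 1084 RPKM over the 12 libraries (628 to 1544) and ranked 57 of the 12672 genes that passed the low-count filter. Hsp90b1 (GRP94) averaged 428 RPKM, Herpud1 382, Calr (calreticulin) 254 and Sdf2l1 218. Xbp1 averaged 165 RPKM and Dnajb9 108. The transcription factor genes Atf4 and Ddit3 were lowest among the genes detected throughout, at 57.0 and 28.3 RPKM, and Ddit3 ranked 2314.

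The order held in every library for some neighbours only. Hspa5 was above Hsp90b1, Xbp1 above Dnajb9 and Atf4 above Ddit3 in 12 of 12 libraries. Herpud1 was above Calr, Sdf2l1 above Xbp1 and Dnajb9 above Atf4 in 11, Calr above Sdf2l1 in 9, and Hsp90b1 above Herpud1 in 7. Over the 12 libraries the ranges of neighbouring genes overlapped, except those of Ddit3 and Trib3.

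**Figure D1:**
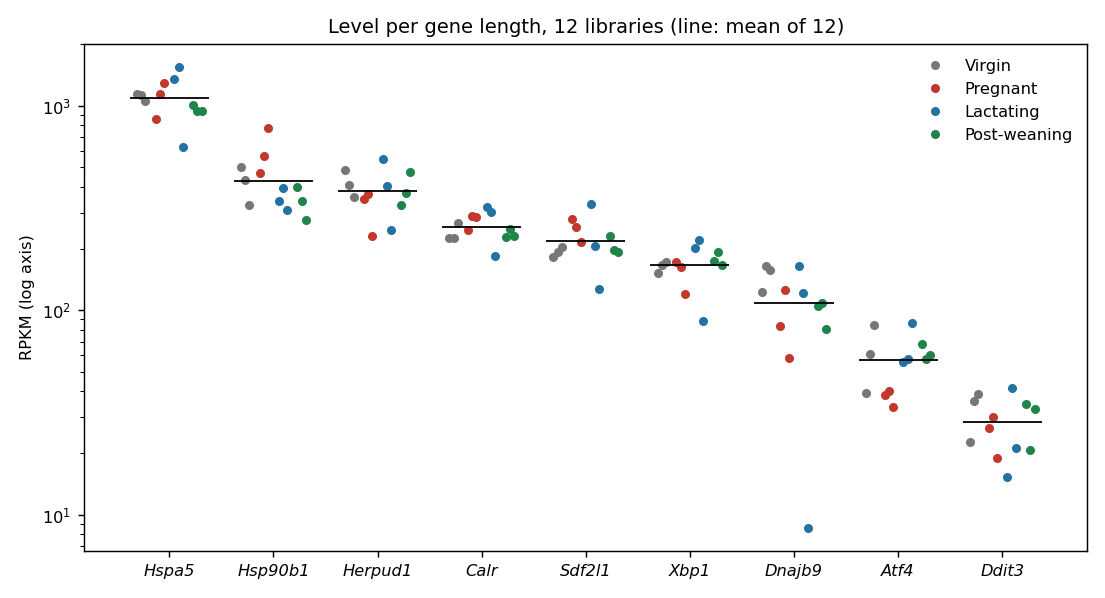
Level per gene length (RPKM, log axis) of the 9 members detected in every library, 12 points each, coloured by stage, with a line at the mean of the 12. Hspa5 lies highest at 1084 RPKM and Ddit3 lowest at 28.3 RPKM, and the single low Dnajb9 point, 8.61 RPKM, is Lactating replicate 3.

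No member passed the test between any of the stages. Of 54 tests, 9 genes in 6 comparisons, edgeR's quasi-likelihood test called 0 at a Benjamini-Hochberg adjusted p under 0.05, and 5 had an unadjusted p under 0.05. Over all genes, between 6.04% and 18.6% had such an unadjusted p, depending on the comparison. The smallest adjusted p was 0.105, for Hsp90b1 in lactating against pregnant libraries. The test of any difference between the 4 stages called 0 of the 9 members, where it called 3.35% of all genes (424 of 12672), with Hsp90b1 nearest (adjusted p = 0.178) and Atf4 next (adjusted p = 0.315). DESeq2 called Hsp90b1 in the any-stage test and in lactating and in post-weaning against pregnant libraries, and limma-voom called it in post-weaning against pregnant libraries. These tools also called more of all genes than edgeR: DESeq2 11.5% for any stage, 11.6% in lactating against pregnant and 3.96% in post-weaning against pregnant libraries, and limma-voom 7.09% in post-weaning against pregnant libraries. With DESeq2, 1 of 9 members is thus no more than the background for any stage and in lactating against pregnant libraries. A p above the threshold does not show equal levels, and the intervals bound what these libraries could hide. The largest fold inside any of the 6 pairwise 95% intervals was 1.60 for Calr, 1.82 for Xbp1, 1.90 for Hspa5, 1.98 for Sdf2l1, 2.06 for Herpud1, 2.55 for Ddit3, 2.58 for Hsp90b1 and 2.76 for Atf4, against 4.71 for Dnajb9. In the fit without Lactating replicate 3 it was 2.45 for Dnajb9, 2.51 for Hsp90b1, 2.46 for Atf4 and 2.43 for Ddit3, and between 1.585 (Calr) and 2.09 (Herpud1) for the other members tested in both fits.

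**Figure D2:**
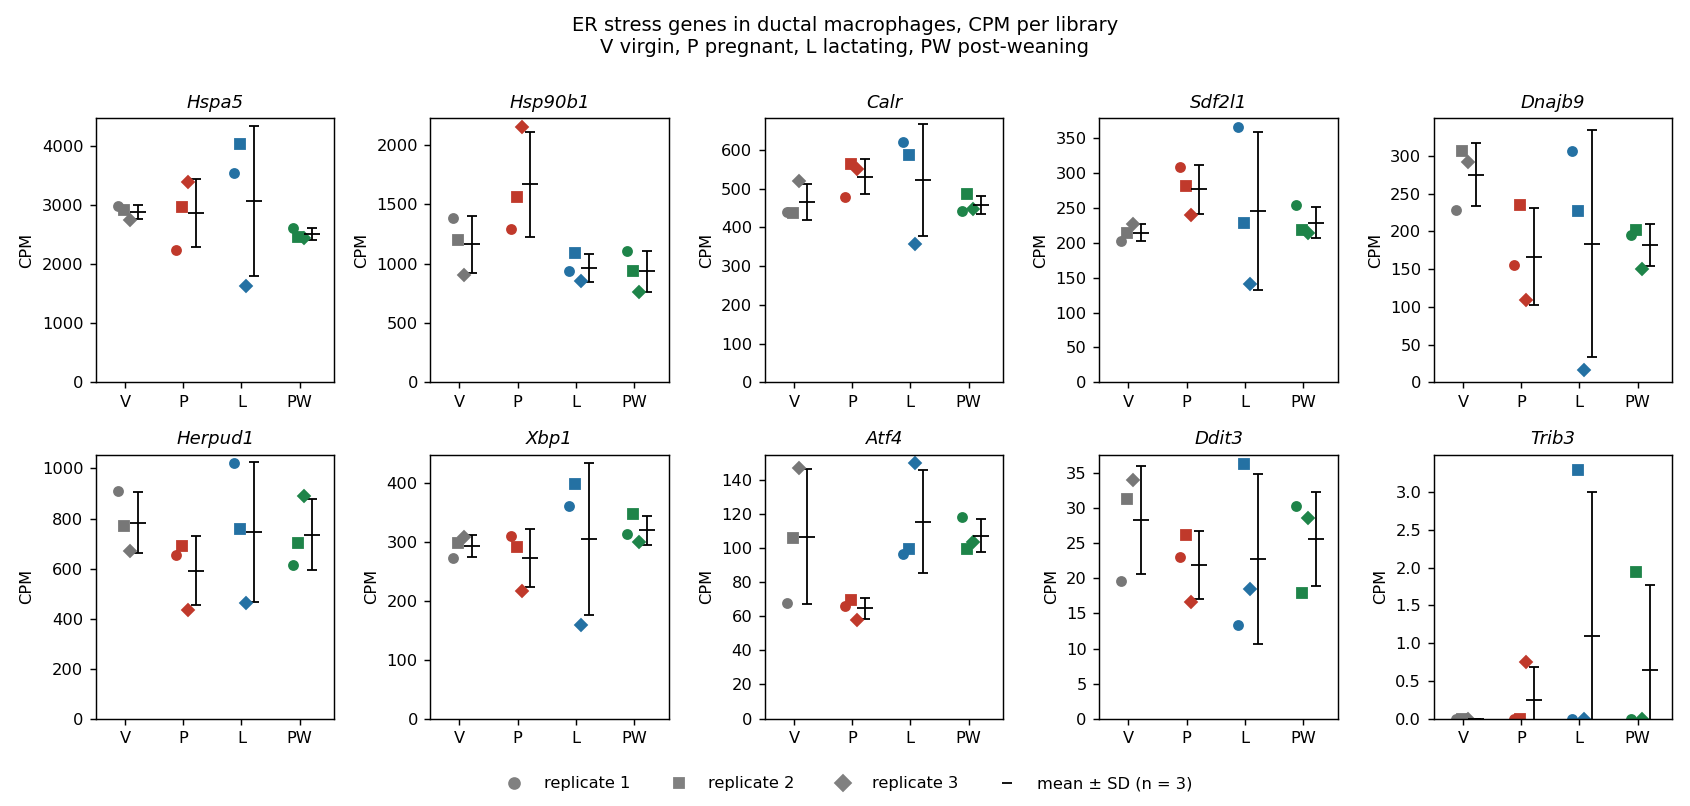
CPM of each of the 10 genes in each library, one panel per gene, with stages from left to right as virgin, pregnant, lactating and post-weaning and the black mark giving mean ± SD (n = 3). The mean of Hsp90b1 is highest and that of Atf4 lowest in the pregnant libraries, Lactating replicate 3 (diamond) is at 16.1 CPM for Dnajb9, and Trib3 is at 0 in 9 of 12 libraries.

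Among the chaperones, Hspa5 had similar stage means and its widest spread in lactation. It reached 2985, 2931 and 2746 CPM in the virgin libraries, 2249, 2966 and 3392 CPM in the pregnant, 3545, 4038 and 1642 CPM in the lactating and 2624, 2465 and 2456 CPM in the post-weaning libraries. The stages overlapped except that all 3 post-weaning libraries lay below all 3 virgin libraries. The stage means were 2888 ± 125, 2869 ± 577, 3075 ± 1265 and 2515 ± 94.7 CPM in stage order, and the highest was 1.22 times the lowest. That ratio was 1.51 without Lactating replicate 3, between lactating and post-weaning libraries. The pairwise comparison with the smallest p was post-weaning against lactating (log2 fold change -0.29 ± 0.29 SE, edgeR adjusted p = 0.706), and without Lactating replicate 3 it was -0.53 ± 0.16 (adjusted p = 0.144). Among 12382 genes compared, the profiles most like that of Hspa5 over the 12 libraries were those of Epsti1, H2-Aa and Calr, with root mean square differences of 0.158, 0.189 and 0.190 on the centred log2(CPM + 1) scale. Over the 11 libraries without Lactating replicate 3 the nearest was that of Btf3, with a difference of 0.111 among 12391 genes compared.

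Hsp90b1 (Entrez 22027, chromosome 10, 86690841 to 86705444), the HSP90 chaperone of the ER that folds integrins and Toll-like receptors, gave the 2 smallest p-values of the 9 genes. It reached 1385, 1198 and 906 CPM in virgin libraries, 1294, 1557 and 2152 CPM in pregnant, 942, 1087 and 855 CPM in lactating and 1107, 941 and 763 CPM in post-weaning libraries. Every pregnant library was above every lactating and every post-weaning library, while Pregnant replicate 1 lay below Virgin replicate 1. The stage means were 1163 ± 242, 1668 ± 439.6, 961 ± 117 and 937 ± 172 CPM in stage order, a ratio of 1.78 between pregnant and post-weaning libraries.

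On the log2 scale Hsp90b1 differed by -0.83 ± 0.25 SE in post-weaning against pregnant libraries (95% interval -1.37 to -0.29, edgeR adjusted p = 0.207). In lactating against pregnant libraries the value was -0.80 ± 0.25 (-1.33 to -0.26, edgeR adjusted p = 0.105), and in pregnant against virgin libraries 0.52 ± 0.24 (adjusted p = 0.429). These 3 comparisons share the pregnant libraries. Leaving out Lactating replicate 3 gave a log2 value of -0.77 ± 0.25 in lactating against pregnant libraries (adjusted p = 0.119) and of -0.83 ± 0.22 in post-weaning against pregnant libraries (adjusted p = 0.0927). Without Pregnant replicate 3, the library with the most Hsp90b1, the same comparisons gave -0.57 (edgeR adjusted p = 0.319) and -0.61 (edgeR adjusted p = 0.633). These were the smallest differences among all alternative settings. The milk protein and secretory epithelium list summed to 16484, 3316 and 3748 CPM in Pregnant replicates 1, 2 and 3, to between 3485 and 4974 CPM in post-weaning libraries and to between 1539 and 1663 CPM in virgin libraries. Plin2 and Trf made up most of it in virgin libraries (means 811 and 768 CPM) and in post-weaning libraries (996 and 1964 CPM). Csn1s1, Csn1s2a and Wap were at 0 in virgin libraries. The plasma and B cell list summed to between 229 and 300.2 CPM in pregnant libraries, below its 326 to 1863 CPM in the other libraries, and Ighm made up most of it in the pregnant and virgin libraries, with means of 189 CPM in pregnant and 326 CPM in virgin libraries. Jchain was at 0 in every pregnant and every virgin library. Their part in the result was not tested.

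Calr (Entrez 12317, chromosome 8), the calcium-binding chaperone of glycoproteins, varied least, with an SD of 0.225 on the log2 scale over the 12 libraries against a median of 0.83 over all tested genes (0.183 against 0.712 without Lactating replicate 3). Its means were 466 ± 47.1, 531 ± 45.4, 522 ± 144 and 458 ± 23.2 CPM from virgin to post-weaning libraries, the lactating mean being 604 CPM without Lactating replicate 3, and the smallest p was in post-weaning against pregnant libraries (log2 fold change -0.21 ± 0.21, adjusted p = 0.934). Sdf2l1 (Entrez 64136, chromosome 16), which assists BiP in its chaperone cycle, averaged 214 ± 11.9, 276 ± 35.0, 245 ± 113 and 229 ± 21.9 CPM, with a lactating mean of 297 CPM without that library. For both genes the lactating mean was then the highest of the 4 stages. All 3 pregnant libraries, 239 to 309 CPM, lay above all 3 virgin libraries, 202 to 226 CPM, with a log2 fold change of 0.37 ± 0.28 (adjusted p = 0.751).

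Dnajb9 (Entrez 27362, chromosome 12), also named ERdj4, is a J-domain partner of BiP and the member with the widest spread, with an SD of 1.14 on the log2 scale, or 0.467 without Lactating replicate 3. It reached 228, 306 and 291 CPM in virgin libraries, 156, 235 and 109 CPM in pregnant, 307, 227 and 16.1 CPM in lactating and 195, 201 and 151 CPM in post-weaning libraries. Lactating replicate 3 was the lowest of the 12 libraries, the next lowest being Pregnant replicate 3, and every post-weaning library was below every virgin library. The log2 fold change in pregnant against virgin libraries was -0.73 ± 0.69 (adjusted p = 0.840), and without Lactating replicate 3 it was -0.73 ± 0.26 (adjusted p = 0.183).

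Herpud1 (Entrez 64209, chromosome 8), which recruits the ubiquitin machinery of ER-associated degradation, averaged 783 ± 121, 592 ± 139, 746 ± 279.9 and 736 ± 141 CPM in stage order, and 888 CPM in the other 2 lactating libraries. Its lowest stage was pregnancy, with a log2 fold change of -0.40 ± 0.29 in pregnant against virgin libraries (adjusted p = 0.715), and the libraries overlapped. Xbp1 (Entrez 22433, chromosome 11), whose mRNA is spliced by IRE1 to encode the active factor, averaged 293 ± 18.5, 273 ± 49.2, 306 ± 129 and 319.8 ± 24.5 CPM, and 379 CPM in the 2 lactating libraries other than replicate 3, so that without it the lactating mean of Herpud1 and of Xbp1 was the highest. Gene counts do not separate spliced from unspliced Xbp1, so its activity is not measured here. Its smallest p was in post-weaning against pregnant libraries (log2 fold change 0.23 ± 0.29, adjusted p = 0.976).

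Atf4 (Entrez 11911, chromosome 15, 80255184 to 80257545), the transcription factor whose translation rises under PERK and other eIF2α kinases, was lowest in pregnancy. It reached 67.7, 106 and 147 CPM in virgin libraries, 66.0, 69.7 and 57.9 CPM in pregnant, 96.7, 99.0 and 150.0 CPM in lactating and 118, 99.6 and 103 CPM in post-weaning libraries. Every pregnant library was below every lactating and every post-weaning library, and Virgin replicate 1 lay among the pregnant ones. The means were 107 ± 39.4, 64.6 ± 6.07, 115 ± 30.1 and 107 ± 9.7 CPM in stage order, with a highest to lowest ratio of 1.78, or 1.66 without Lactating replicate 3. The log2 fold change was 0.84 ± 0.29 in lactating against pregnant libraries (95% interval 0.21 to 1.46, edgeR adjusted p = 0.143), 0.73 ± 0.29 in post-weaning against pregnant (adjusted p = 0.386) and -0.72 ± 0.29 in pregnant against virgin libraries (adjusted p = 0.335). Leaving out Lactating replicate 3, the value in lactating against pregnant libraries was 0.55 ± 0.28 (adjusted p = 0.328). The 21 immediate early and dissociation stress genes examined, such as Fos, Jun and Egr1, summed to between 4650.2 and 6196 CPM in pregnant libraries, against 12408 to 20009.7 CPM in virgin, 9054 to 12388 CPM in lactating and 15480.0 to 16877 CPM in post-weaning libraries. Virgin replicate 1 was the lowest of the virgin libraries for this sum and for Atf4, while Lactating replicate 3 was the lowest of the lactating libraries for the sum and the highest for Atf4. Their part in the result was not tested. The profiles most like that of Atf4, among 12313 genes compared, were those of Ilk, Gm12696 and Abhd16a, with root mean square differences of 0.209, 0.234 and 0.249. With Lactating replicate 3 left out, 3 other genes were nearest among 12279 compared, Myd88, Icam1 and P2ry6, with differences of 0.181, 0.186 and 0.214.

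Ddit3 (Entrez 13198, chromosome 10), which encodes CHOP, the factor tied to cell death under prolonged ER stress, averaged 28.3 ± 7.65, 21.9 ± 4.89, 22.7 ± 12.1 and 25.6 ± 6.70 CPM from virgin to post-weaning libraries, with 24.9 CPM in lactation without replicate 3. The stages overlapped, and the smallest p was in pregnant against virgin libraries (log2 fold change -0.37 ± 0.45, adjusted p = 0.903). Trib3 (Entrez 228775, chromosome 2), a pseudokinase induced by ATF4 and CHOP, had 18 counts in Pregnant replicate 3, 18 in Lactating replicate 2 and 19 in Post-weaning replicate 2, and 0 in the other 9 libraries. A count of 0 allows up to 3 counts, equal to between 0.219 and 0.520 CPM by library, which covers counting error only. Trib3 did not pass the low-count filter over the 12 libraries, which left 9 members tested, passed it over the 11 libraries without Lactating replicate 3, which left 10, and no fold is given for it. The counts and medians of 10 members include its fitted value, which rests on those 3 libraries.

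Summed over the 10 genes, levels were 6511, 6291 and 5849 CPM in virgin, 5537, 6679 and 7168 CPM in pregnant, 7271, 7460 and 3798 CPM in lactating and 5698, 5479 and 5352 CPM in post-weaning libraries. The lactating libraries held both the highest and the lowest sum. Hspa5 makes up much of this sum, so it says little of the other members. Across the 12 libraries the most alike pairs of members were Hspa5 and Calr, with a root mean square difference of 0.190 between their centred log2(CPM + 1) profiles, Sdf2l1 and Calr (0.216), and Xbp1 and Calr (0.261). The most unlike were Atf4 and Dnajb9 (1.26), and Lactating replicate 3 was the highest of the 12 libraries for Atf4 and the lowest for Dnajb9. Over the 11 other libraries the same 3 pairs were closest (0.174, 0.208 and 0.239), Atf4 and Dnajb9 differed by 0.397, and the most unlike pair was Atf4 and Hsp90b1 (0.746). These values describe the same libraries and carry no test.

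In pregnant against virgin libraries, 0 of the 9 tested members were called by edgeR, where 1.32% of all genes were called, 0.442% higher and 0.876% lower. The median log2 difference of the members was -0.10, against 0.03 over all genes, with 3 members positive and 6 negative. Sdf2l1, higher, was the 1 member whose libraries did not overlap between these stages, where 24.2% of all genes did not overlap. At an unadjusted p under 0.05 stood 1 member, Atf4, among 1547 genes (12.2% of all genes). In the fit without Lactating replicate 3, 0 of 10 members were called and 3 had an unadjusted p under 0.05, Atf4, Dnajb9 and Hsp90b1, where 3.26% of all genes were called and 16.6% had such a p.

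In lactating against virgin libraries 0 of 9 members were called, where 1.94% of all genes were called, 1.04% higher and 0.9% lower. The median log2 difference was 0.06 for the members and -0.06 for all genes, with 5 members positive. No member was free of overlap, where 17.3% of all genes were, and no member but 2129 genes had an unadjusted p under 0.05. Without Lactating replicate 3 the median of the members was 0.23, against -0.15 for all genes, 6 of 10 were positive, and 0 were called, where 3.1% of all genes were, and none had an unadjusted p under 0.05, where 16.9% of all genes did. Hspa5 then had a log2 fold change of 0.34 ± 0.16 (adjusted p = 0.314) and Calr of 0.33 ± 0.15 (adjusted p = 0.296).

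In post-weaning against virgin libraries 0 of 9 members and 0% of all genes were called by edgeR, which gave 765 genes (6.04%), none of them members, an unadjusted p under 0.05. DESeq2 called 125 genes (0.986%) and limma-voom 1 (0.00789%) in this comparison, with no member among them. The median log2 difference was -0.09 for the members and 0.02 for all genes, with 3 members positive. Hspa5 and Dnajb9, both lower, did not overlap between these stages, 2 of 9 members where 15.4% of all genes did not overlap. In the fit without Lactating replicate 3, 0 of 10 members were called, where 0.0745% of all genes (10) were, and Dnajb9 had an unadjusted p under 0.05 (log2 fold change -0.58 ± 0.26, adjusted p = 0.512), as did 9.57% of all genes.

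In lactating against pregnant libraries 0 of 9 members were called, where 3.85% of all genes were called, 2.65% higher and 1.2% lower. The members' median log2 difference was 0.10, against -0.14 for all genes, and 6 of 9 were positive. Atf4, higher, and Hsp90b1, lower, did not overlap between the stages, 2 of 9 where 26.6% of all genes did not overlap. These 2 were also the members with an unadjusted p under 0.05, where 18.6% of all genes had such a p. Without Lactating replicate 3 the median of the members was 0.39, against -0.25 for all genes, and Hsp90b1 was the 1 negative member of 10. With that library left out 0 members were called, where 5.13% of all genes were, and Hsp90b1, Xbp1, Herpud1 and Dnajb9 had an unadjusted p under 0.05, as did 18.2% of all genes. Xbp1 stood at a log2 fold change of 0.43 ± 0.17 (adjusted p = 0.2196), Herpud1 at 0.54 ± 0.24 (adjusted p = 0.257) and Dnajb9 at 0.64 ± 0.29 (adjusted p = 0.265).

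In post-weaning against pregnant libraries 0 of 9 members were called, where 0.718% of all genes were called, 0.576% higher and 0.142% lower. The median log2 difference was 0.13 for the members and 0.01 for all genes, with 5 members positive. Atf4, higher, and Hsp90b1, lower, were again free of overlap and had an unadjusted p under 0.05, where 27.3% of all genes did not overlap and 10.2% had such a p. In the fit to the other 11 libraries, without Lactating replicate 3, 0 of 10 members were called, where 2.29% of all genes were, and Hsp90b1 and Atf4 again had an unadjusted p under 0.05, as did 14.2% of all genes.

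In post-weaning against lactating libraries 0 of 9 members were called, where 0.923% of all genes were called, 0.458% higher and 0.466% lower, and no member was free of overlap, where 21.6% of all genes were. No member and 1912 genes had an unadjusted p under 0.05 there. The median log2 difference was -0.04 for the members and 0.08 for all genes, with 2 members positive, or 4 with RLE size factors. Leaving out Lactating replicate 3, it was -0.26 for the members and 0.21 for all genes, and Hspa5 and Calr had an unadjusted p under 0.05 among 10 members with 0 called, where 1.8% of all genes were called and 15.5% had such a p.

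**Figure D3:**
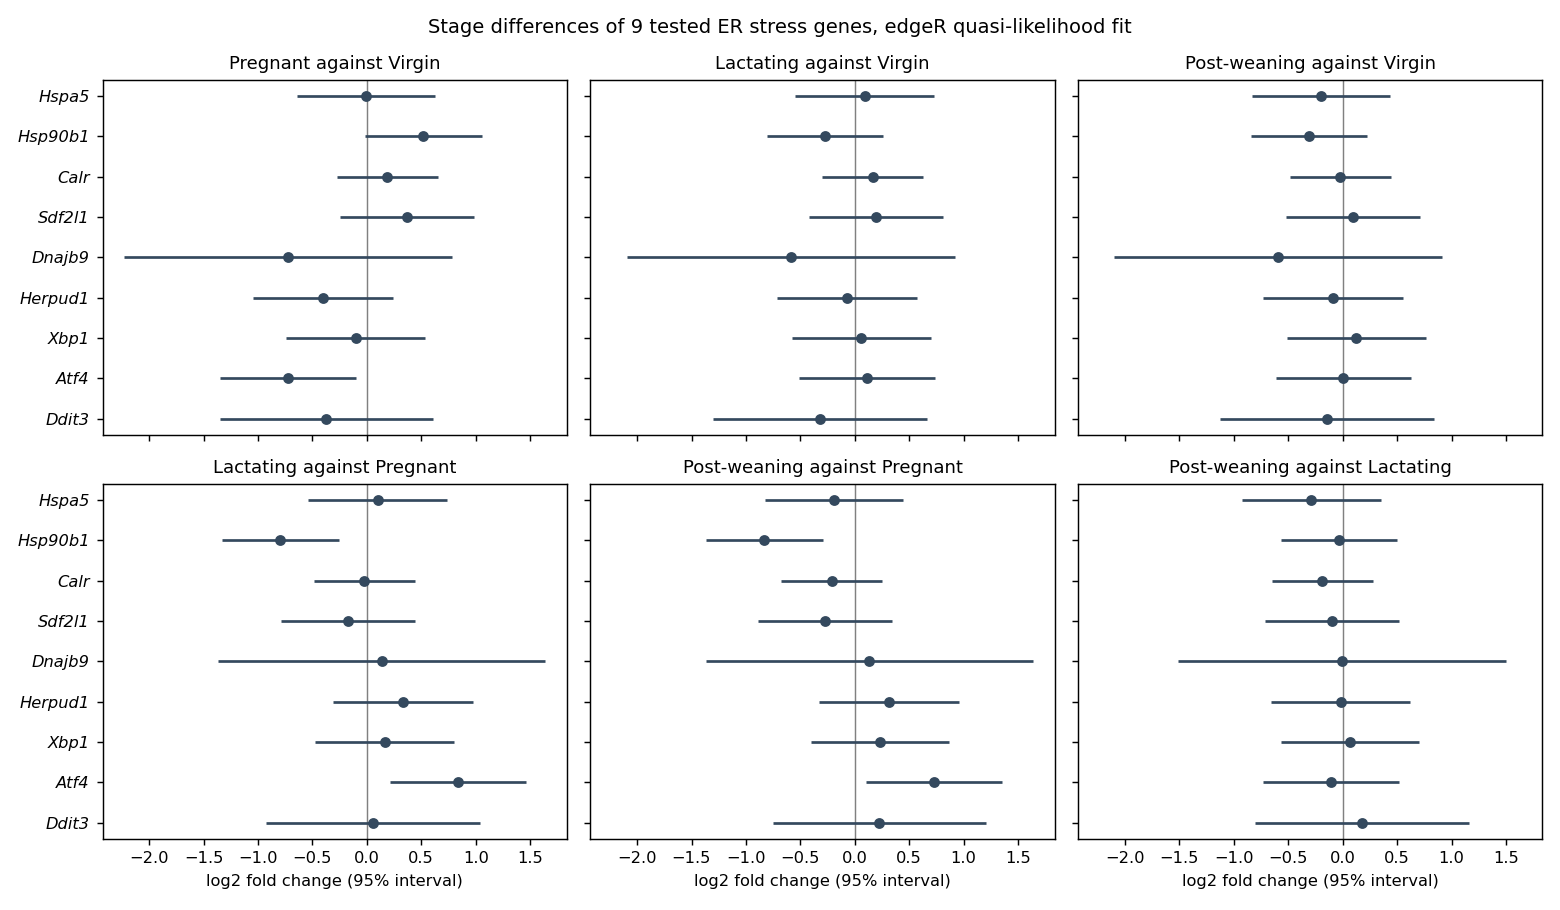
Log2 fold change (points) and 95% interval (lines) of the 9 tested members in each of the 6 comparisons, from the edgeR fit to 12 libraries, with the stage named first on top of the ratio. The intervals of Hsp90b1 lie below 0 in both comparisons against pregnant libraries, those of Atf4 above 0 there and below 0 in pregnant against virgin libraries, and Dnajb9 has the widest intervals.

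The members were set beside the rest of the pathway: 6 sensors and their proteases, 22 further ER chaperones and foldases, 18 genes of ER-associated degradation, 16 of protein import and signal peptide processing, and 25 reported targets of ATF4 and CHOP, all of them tested. edgeR called 0 sensor and 0 further chaperone genes in each of the 6 comparisons. Over all genes it called 1.32% in pregnant against virgin, 1.94% in lactating against virgin and 3.85% in lactating against pregnant libraries. In post-weaning libraries it called 0.718% of all genes against pregnant, 0.923% against lactating and 0% against virgin libraries. In lactating against pregnant libraries 3 sensors and 2 chaperones had an unadjusted p under 0.05, DESeq2 called 2 sensors and 1 chaperone, and limma-voom called 1 of each. Over all genes 18.6% had such a p there, DESeq2 called 11.6% and limma-voom 7.88%. In pregnant against virgin libraries 4 chaperones had such a p, where 12.2% of all genes did, and DESeq2 called 1, where it called 5.18% of all genes. In the remaining comparisons at most 3 genes of either list had such a p, and each of the other tools called at most 1. Of the degradation genes 1 of 18, Ube2g2, was called by edgeR, in lactating against virgin libraries, and the other 5 comparisons had 0. An unadjusted p under 0.05 was reached by 6 of the 18 in pregnant against virgin, 5 in lactating against virgin (16.8% of all genes), 3 in lactating against pregnant and 2 in post-weaning against lactating libraries (15.1% of all genes). DESeq2 called 2 and limma-voom 1 of the 18 in lactating against pregnant libraries, and each called 1 in lactating against virgin libraries, where DESeq2 called 9.26% and limma-voom 1.94% of all genes. Each also called 1 in post-weaning against lactating libraries, where they called 7.25% and 3.05% of all genes. Of the import genes 1 of 16, Sec61b, was called by edgeR, in the 3 comparisons with pregnant libraries. An unadjusted p under 0.05 was reached by 4 of the 16 in pregnant against virgin and in post-weaning against pregnant libraries (10.2% of all genes), and by 3 in lactating against pregnant libraries. DESeq2 called 2 of the 16 in lactating against pregnant libraries (11.6% of all genes) and limma-voom 2 in post-weaning against pregnant libraries (7.09% of all genes). Of the ATF4 and CHOP targets, Ppp1r15a, Cebpb and Atf3 were lower in pregnant against virgin libraries (3 of 25), and Sesn2 was lower in lactating against virgin (1 of 25). In lactating against pregnant libraries Cebpb and Ppp1r15a were higher and Sesn2 lower, in post-weaning against pregnant libraries Ppp1r15a and Cebpb were higher, and in post-weaning against lactating libraries Sesn2 was higher. An unadjusted p under 0.05 was reached by 7 of the 25 in pregnant against virgin, 8 in lactating against virgin, 5 in lactating against pregnant, 4 in post-weaning against pregnant and 3 in post-weaning against lactating libraries. DESeq2 and limma-voom each called 3 of the 25 in pregnant against virgin libraries, where they called 5.18% and 3.73% of all genes. Each called 5 in lactating against pregnant libraries (11.6% and 7.88% of all genes) and 4 in post-weaning against pregnant libraries (3.96% and 7.09%). In post-weaning against virgin libraries 0 of the 25 targets were called by edgeR, DESeq2 or limma-voom, and 1 had an unadjusted p under 0.05.

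In pregnant against virgin libraries the median log2 difference was 0.38 for the further chaperones, 0.32 for degradation, 0.54 for import and 0.19 for the ATF4 and CHOP targets, -0.59 for the sensors and 0.03 for all genes. In lactating against pregnant libraries it was -0.44 for the further chaperones, -0.48 for import, 0.02 for degradation, 0.58 for the sensors and 0.53 for the ATF4 and CHOP targets, against -0.14 for all genes. Without Lactating replicate 3 the same medians were -0.26, -0.37, -0.01, -0.07 and 0.11. The median of the sensors thus changed sign with that library, and that of all genes was then -0.25.

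More pathway genes passed the edgeR test when Lactating replicate 3 was left out, as did more of all genes: 3.26% against 1.32% with it in pregnant against virgin, 3.1% against 1.94% in lactating against virgin, 5.13% against 3.85% in lactating against pregnant and 2.29% against 0.718% in post-weaning against pregnant libraries. The shares rest on unlike gene sets, as 13426 genes passed the low-count filter without that library and 12672 with it. Lactating values in the fit without it come from Lactating replicates 1 and 2 alone. Of the further chaperones, 2 of 22 then rose in pregnant against virgin libraries, the disulfide isomerase gene Pdia6 (log2 fold change 0.82 ± 0.14, adjusted p = 0.00814) and Dnajc3, a BiP co-chaperone that also inhibits PERK (0.57 ± 0.14, adjusted p = 0.0451). The same 2 rose in lactating against virgin libraries, Pdia6 by 0.75 ± 0.16 and Dnajc3 by 0.67 ± 0.15. There Sel1l, the adaptor of the degradation channel, rose by 1.27 ± 0.28, Edem1, a mannosidase-like protein that marks misfolded glycoproteins, by 0.93 ± 0.20, and the amino acid transporter genes Slc3a2 and Slc7a11 by 0.75 ± 0.16 and 1.53 ± 0.32. The plasma and B cell list summed to 511 and 1863 CPM in Lactating replicates 1 and 2, against 326 to 502 CPM in virgin libraries. In Lactating replicate 2 Jchain stood at 446 CPM and Igkc at 808 CPM, and in Lactating replicate 1 both were at 0, as was Jchain in every virgin library, where Igkc reached at most 0.344 CPM. Prdm1 stood at 184 and 216 CPM in these lactating libraries and at 54.5 to 63.4 CPM in virgin libraries. Their part in the result was not tested. Spcs2, a signal peptidase subunit, rose by 0.67 ± 0.16 in pregnant against virgin libraries. In lactating against pregnant libraries the sensor gene Atf6 rose by 1.53 ± 0.28 (adjusted p = 0.00709), Atf3 by 1.12 ± 0.19 and Slc3a2 by 1.01 ± 0.16. In post-weaning against pregnant libraries the cyclophilin gene Ppib changed by -0.95 ± 0.22 (adjusted p = 0.0439), and Atf3 and the stress-induced Nupr1 rose by 1.00 ± 0.17 and 3.21 ± 0.72.

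Ppp1r15a, whose product GADD34 brings a phosphatase to eIF2α and so ends the translational block, fell in pregnancy. It reached 218, 138 and 153 CPM in pregnant libraries, against 514, 899 and 1031 CPM in virgin libraries, 674, 571 and 534 CPM in lactating and 612, 605 and 643 CPM in post-weaning libraries, and the pregnant libraries overlapped with no other. The log2 fold change was -2.27 ± 0.27 in pregnant against virgin (edgeR adjusted p = 0.00668), 1.81 ± 0.27 in lactating against pregnant (adjusted p = 0.0036) and 1.87 ± 0.27 in post-weaning against pregnant libraries (adjusted p = 0.015). Lactating against pregnant libraries gave 1.83 ± 0.27 (adjusted p = 0.00228) without Lactating replicate 3. The call in post-weaning against pregnant libraries was lost without Pregnant replicate 2 (adjusted p = 0.124) or 3, or without any 1 of the post-weaning libraries.

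Cebpb, a transcription factor of macrophage activation that pairs with CHOP, reached 619, 410.0 and 418 CPM in pregnant libraries, against 741, 1262 and 1112 CPM in virgin libraries, 1581, 1742 and 1408 CPM in lactating and 1421, 1370.4 and 1319.5 CPM in post-weaning libraries. Every pregnant library was below all others. The log2 fold change was 1.71 ± 0.24 in lactating against pregnant (edgeR adjusted p = 0.0026), 1.51 ± 0.24 in post-weaning against pregnant (adjusted p = 0.0184) and -1.11 ± 0.24 in pregnant against virgin libraries (adjusted p = 0.0471). The value in lactating against pregnant libraries was 1.73 ± 0.23 (adjusted p = 0.00093) without Lactating replicate 3. Leaving out 1 library ended the call in pregnant against virgin libraries in 10 of 12 fits, all but those without Virgin replicate 1 or Lactating replicate 3, with an adjusted p of 0.231 without Pregnant replicate 2. The call in post-weaning against pregnant libraries was lost (adjusted p up to 0.132) without Pregnant replicate 2 or 3 or any post-weaning library.

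Atf3, a transcription factor induced by many kinds of stress, reached 564, 516 and 629.9 CPM in pregnant libraries, against 1119, 1680.2 and 1445 CPM in virgin libraries, with a log2 fold change of -1.31 ± 0.26 (edgeR adjusted p = 0.0354). That call was lost in 9 of 12 fits that left out 1 library, with an adjusted p of up to 0.186, and kept without Virgin replicate 1, Lactating replicate 1 or Lactating replicate 3. Ppp1r15a, Cebpb and Atf3 shared their pregnant low with the stress list whose sums stand beside Atf4. That list averaged 16787, 5219, 10616.5 and 15990 CPM in stage order, and over all 12 libraries the means of Ppp1r15a and Atf3 ranked the stages in the same way. Cebpb did not, with means of 1038, 482, 1577 and 1370 CPM in stage order. For Ppp1r15a and Atf3 the lactating mean was below the post-weaning mean only with Lactating replicate 3, at 534 and 683 CPM. Lactating replicates 1 and 2 stood at 674 and 571 CPM for Ppp1r15a and at 1451 and 1122 CPM for Atf3. Post-weaning libraries ran from 605 to 643 CPM and from 1113 to 1151 CPM. The list sums of Lactating replicates 1 and 2, 12388 and 10408 CPM, were below those of every post-weaning library. In pregnant against virgin libraries edgeR called 10 of the 21 listed genes lower, where 0.876% of all genes were called lower. Their part in the result was not tested.

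Sec61b, a subunit of the channel through which new proteins enter the ER, was higher in pregnancy. It reached 122.9, 204 and 184 CPM in pregnant libraries, against 72.1, 75.7 and 50.5 CPM in virgin libraries, 82.5, 67.4 and 43.8 CPM in lactating and 58.2, 54.4 and 48.1 CPM in post-weaning libraries. No other library reached the lowest pregnant one. The log2 fold change was 1.37 ± 0.29 in pregnant against virgin (edgeR adjusted p = 0.0466), -1.40 ± 0.29 in lactating against pregnant (adjusted p = 0.0207) and -1.67 ± 0.29 in post-weaning against pregnant libraries (adjusted p = 0.0291). The first was kept only without Lactating replicate 1 or 3 among fits that left out 1 library. The second was -1.23 ± 0.28 (adjusted p = 0.0257) without Lactating replicate 3, and was lost without Pregnant replicate 2 or 3 or Lactating replicate 2, and the last without Pregnant replicate 2 or 3 or any post-weaning library.

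Sesn2, a stress-induced brake on mTORC1 signalling, was nearly absent in lactation. It stood at 0.52, 0 and 0 CPM in lactating libraries (3, 0 and 0 counts), against 31.1, 27.5 and 19.4 CPM in virgin libraries, 27.9, 18.5 and 18.2 CPM in pregnant and 20.2, 18.3 and 34.3 CPM in post-weaning libraries. In pooled counts it was 190.3 times lower in lactating than in virgin libraries (95% counting interval 64.9 to 925), 153 times lower than in pregnant (52.3 to 745) and 186 times lower than in post-weaning libraries (63.5 to 905), intervals that cover counting error only. The edgeR adjusted p-values were 0.00505, 0.00331 and 0.00944, and in fits to only the 6 libraries compared 0.236, 0.0896 and 0.18. Without Lactating replicate 3 they were 0.00223, 0.00114 and 0.00369. The lactating libraries had counts for 11462, 11412 and 10178 genes, against 11295 to 13207 in virgin, 13329 to 13790 in pregnant and 12984 to 13476 in post-weaning libraries. The part of this in the result was not tested.

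Ube2g2, a ubiquitin-conjugating enzyme of ER-associated degradation, reached 113, 146 and 126 CPM in lactating libraries, against 39.9, 32.2 and 49.2 CPM in virgin libraries. All 3 lactating libraries were above the 9 others. The log2 fold change was 1.67 ± 0.29 (edgeR adjusted p = 0.0171), and the call was lost without Virgin replicate 1 or 2 (adjusted p = 0.0643 without the second) and in a fit to only the 6 libraries compared (adjusted p = 0.163). It was 1.63 ± 0.31 (adjusted p = 0.0172) without Lactating replicate 3. Milk genes also rose between these stages, 6 of 16 called, with Csn1s1, Csn1s2a and Wap at 0 in every virgin library. Their summed level was 78821 CPM in Lactating replicate 3 and 3534 to 3774 CPM in the other lactating libraries. Their part in the result was not tested.

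**Figure D4:**
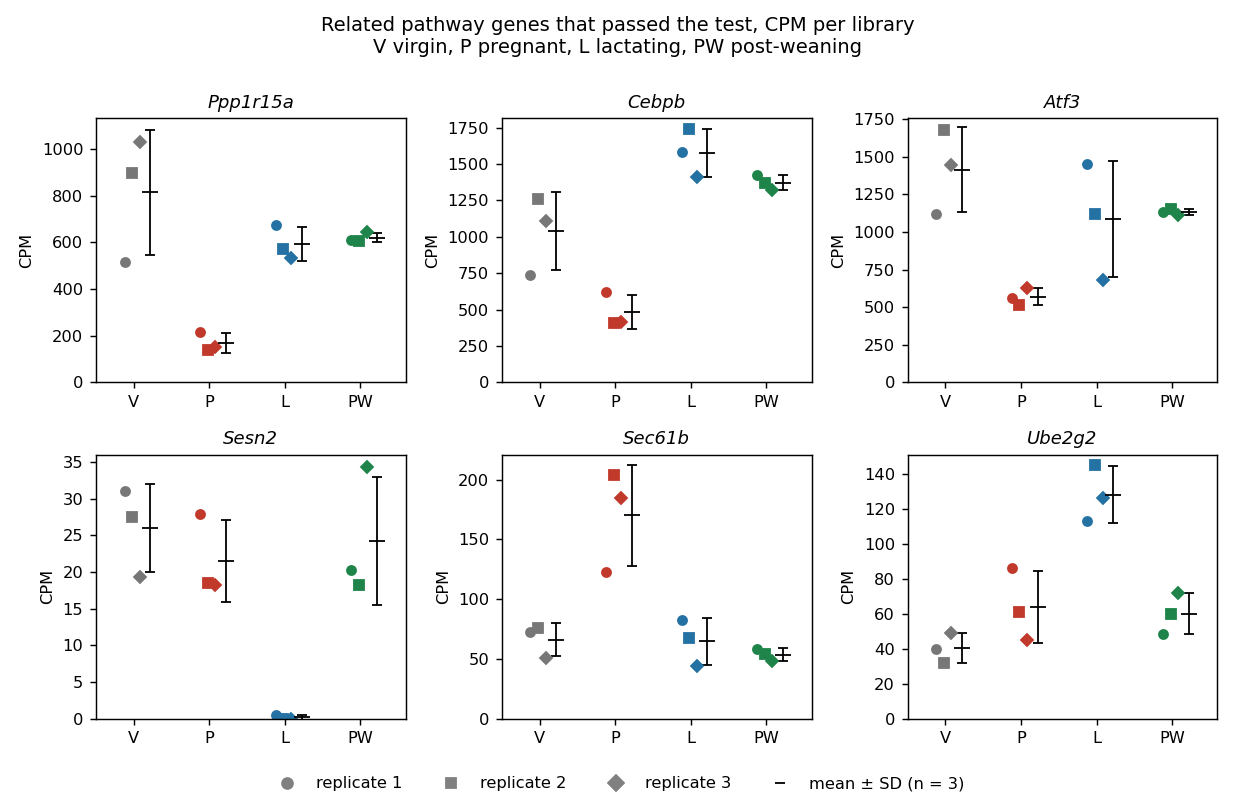
CPM per library of the 6 pathway genes called in at least 1 comparison, one panel per gene, with stages as virgin, pregnant, lactating and post-weaning from left to right and the black mark giving mean ± SD (n = 3). Ppp1r15a, Cebpb and Atf3 are lowest and Sec61b highest in pregnant libraries, Sesn2 is at or near 0 in lactating libraries, and Ube2g2 is highest there.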

How the data were processed

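The authors deposited raw gene counts without normalization, made with featureCounts on mm10 per the submitters' processing notes. No source used here names the aligner, tool versions or strand setting, so reads of overlapping or antisense genes, and of near-identical pseudogenes, cannot be told apart. Without molecular identifiers, PCR copies count as reads. Depth ran from 6926273 to 21204704 counts per library, and no pair of libraries of a stage agreed within sampling noise. Symbols, positions and promoters came from RefSeq tables of GRCm38.p6 (mm10), where symbols matched 25275 of 27179 identifiers and all 10 members. Positions are 1-based.

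The members and all lists were chosen with earlier results of these data known. Genes were filtered with filterByExpr by stage (12672 kept), scaled by TMM and tested in 1 robust edgeR 4.0.16 quasi-likelihood fit (R 4.3.3) to all 12 libraries with a mean per stage, adjusted by Benjamini-Hochberg over all tested genes and called at 0.05. The common biological coefficient of variation was 0.856. CPM divide counts by TMM-scaled library sizes of the kept genes, and RPKM use the deposited gene lengths. The SE is the log2 fold change divided by the square root of F. Intervals are 95%, with the degrees of freedom of the fit. The procedure was run on simulated counts with known changes. That run checked the direction of the changes and that the largest were recovered more often than the smallest. It is not used here as a measure of the power to find small changes. Members appear with the comparison of their smallest p, and other comparisons with an unadjusted p under 0.05 were added after the values were seen, as was the further value of Hsp90b1 in pregnant against virgin libraries. Of each pathway list the called genes are named, up to 3 a comparison. Pathway genes called without Lactating replicate 3 were named after their values were seen. The alternatives were DESeq2 1.42.0 (263 to 740 genes without an adjusted p were not called), limma-voom (limma 3.58.1) with quality weights, RLE size factors, TMM computed after removing milk, epithelial, ribosomal protein and mitochondrial genes, no filter, 5 CPM in 3 libraries, a replicate block, only the 6 libraries compared, and leaving out each library. The interval limits, spreads, profile differences and stage means without Lactating replicate 3 were added after seeing the data.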

Additional observations from a re-analysis of the deposited data

How the results depend on the processing

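The number of members called was 0 in each of the 6 comparisons and in the any-stage test, and it stayed 0 with RLE size factors, the reduced TMM, either other filter, only the 6 libraries compared and every left-out library (range 0 to 0). It was 1, Hsp90b1, with DESeq2 in lactating against pregnant libraries (adjusted p = 0.0155), with DESeq2 and with limma-voom in post-weaning against pregnant libraries (adjusted p = 0.034 and 0.0275), and with DESeq2 for any stage. Over all genes DESeq2 called 11.6% and 3.96% in these comparisons and 11.5% for any stage, and limma-voom 7.09% in post-weaning against pregnant libraries. The cause was not tested. Members' log2 fold changes were followed through the alternatives only in the comparison of their smallest p and those with an unadjusted p under 0.05. Of these 240 alternative values, 237 kept their direction and side of the threshold, 3 passed it and 0 reversed. Hsp90b1 ran from -0.98 to -0.61 in post-weaning against pregnant libraries, and Atf4 from 0.55 to 0.90 in lactating against pregnant libraries. Some values in the comparisons not followed did reverse without Lactating replicate 3. Atf4 in lactating against virgin libraries went from 0.11 to -0.17, and Xbp1 in post-weaning against lactating libraries from 0.07 to -0.18.

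The titles share replicate numbers, which the labels do not state to pair the libraries. The 18 same-numbered pairs correlated at -0.0683 to 0.0726, pairs of other numbers at -0.0781 to 0.11, and 5 of 12 libraries were closest to their own number. These values give no sign of a pairing, though they could not show its absence. With the replicate block 0 members were called in each comparison. Atf3 (adjusted p = 0.079) and Sec61b (0.0675) in pregnant against virgin, and Cebpb and Sec61b (both 0.0524) in post-weaning against pregnant libraries, lost their calls with the block, as did Cebpb in pregnant against virgin libraries (0.0995), which also lost it with no filter (0.0512) and with the 6 libraries alone (0.0844). With only the 6 libraries compared, Sec61b lost its call in pregnant against virgin (0.0526) and in lactating against pregnant libraries (0.105).

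Counts of called genes varied widely: 40 to 656 around 167 in pregnant against virgin, 0 to 1173 around 246 in lactating against virgin, 0 to 125 around 0 in post-weaning against virgin, 147 to 1465 around 488 in lactating against pregnant, 1 to 899 around 91 in post-weaning against pregnant, and 3 to 919 around 117 in post-weaning against lactating libraries. For any stage they ran from 171 to 1462 around 424. Trib3 had 0 counts in 9 of 12 libraries and 18 in Lactating replicate 2, the library with the fewest counts.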
